A study of Mus musculus with 6 samples.

Results

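The genes described here are the axon guidance ligands and receptors of the mouse: the semaphorins with their plexin and neuropilin receptors, the ephrins with their Eph receptors, the Slits with the Robo receptors, and the netrins with Dcc and the Unc5 receptors. Members were chosen by symbol alone, as rows of the deposited gene count table that carry a name of these families, which gave 68 of 37411 gene rows. Of these, 64 passed the low-count filter and were among the 16233 genes tested. Ntn5, Robo3, Robo4 and Sema3g did not pass it, with 0 to 12 counts in any library.

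The cells were primary hippocampal neurons of CD-1 IGS mice, an outbred strain with no genetic change named, taken from pups at P0, the day of birth, and grown to day in vitro (DIV) 16. DMSO libraries 1, 2 and 3 came from cultures given the solvent alone, and forskolin libraries 4, 5 and 6 from cultures given 50 µM forskolin, a plant compound that switches on adenylyl cyclase, the enzyme that makes cyclic AMP, both for 30 min. The labels do not say how many pups went into a culture or whether the libraries of a group came from separate cultures, so the p-values measure the spread between these libraries, which may be technical. RNA of whole dishes was sequenced, so that fewer cells of a type and less RNA per cell cannot be told apart.

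Guidance ligands steer growing axons by attraction or repulsion: a ligand in the matrix or on a neighbouring cell binds a receptor on the growth cone, and the receptor acts on small GTPases and the cytoskeleton. Class 3 semaphorins are secreted and most of them bind neuropilins, which signal through A-class plexins. The other vertebrate semaphorins are mostly membrane bound and bind plexins directly. Many of these proteins stay in use in mature hippocampus, where Eph receptors, plexins and Slit and Robo proteins take part in the shaping of dendritic spines and synapses.

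Library totals ran from 28342764 to 47548379 counts. Fos, an immediate early gene raised by cyclic AMP, stood at 101 to 186 CPM (counts per 1000000, on library sizes scaled by TMM) with DMSO, and at 831, 902 and 448 CPM in forskolin libraries 4 to 6. Library 6 stood apart from the other forskolin libraries over all tested genes: its correlation of log2 CPM was 0.983 with DMSO library 3, and 0.943 and 0.940 with libraries 4 and 5, which correlated at 0.987 with each other. Marker lists moved along the same division. The summed level of 12 microglia markers was 23.0 to 35.3 CPM with DMSO and 227, 377 and 25.1 CPM in libraries 4, 5 and 6, and that of 12 oligodendrocyte lineage markers was 824 to 917 CPM against 1113, 1602 and 649 CPM. The 14 neuron markers summed to 4770 to 6098 CPM with DMSO, and to 3553, 3845 and 5696 CPM in libraries 4, 5 and 6. Astrocyte markers summed to 7152 to 7878 CPM against 7849, 8676 and 7078 CPM, so that the dishes labelled as neurons also held glial RNA. The 12 vascular and meningeal markers summed to 71.3 to 138 CPM against 194, 88.8 and 67.2 CPM, and Cldn5, which marks endothelial cells, was at 0 in each library except library 4 (0.0425 CPM). No marker of any list was at 0 in every library. Whether the label or the culture of library 6 differs cannot be told from these data. Results for the genes given library by library therefore stand with library 6 and, where the call changed or the value moved by over 1.5 times, also without it, and the part of these cells in any result was not tested.

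Before treatment the guidance genes covered a wide range of levels. Per kilobase of the longest transcript, Epha4, an EphA receptor that binds both ephrin classes, had the highest mean level in the DMSO libraries (50.6 CPM per kb, range 47.9 to 54.5), followed by the class 3 semaphorin receptor Nrp1 (49.7, range 44.7 to 56.0), and these ranges overlapped. Slit1, a secreted repellent for Robo-bearing axons, came next at 42.7 CPM per kb, with a range of 40.7 to 43.7 that lay below that of Epha4 and of Nrp1. Plxnb2, a receptor of class 4 semaphorins, stood at 36.0 CPM per kb, Sema6b, a transmembrane semaphorin that binds A-class plexins, at 33.8, and Efnb3, a transmembrane ephrin, at 32.0, and the ranges of these 3, and those of Slit1 and Plxnb2, overlapped. The lowest tested level was that of the receptor Epha1, at 0.221 CPM per kb. In some families a single gene held most of the summed level: per kb, Epha4 gave 66.2 to 71.8% of the EphA sum in the DMSO libraries, Efna3 71.9 to 72.9% of the ephrin-A sum, Efnb3 69.9 to 71.5% of the ephrin-B sum and Slit1 62.1 to 64.1% of the Slit sum. Other families were spread more evenly, with Sema6b at 22.5 to 27.6% of the semaphorin sum and Plxnb2 at 22.1 to 29.3% of the plexin sum.

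**Figure D1:**
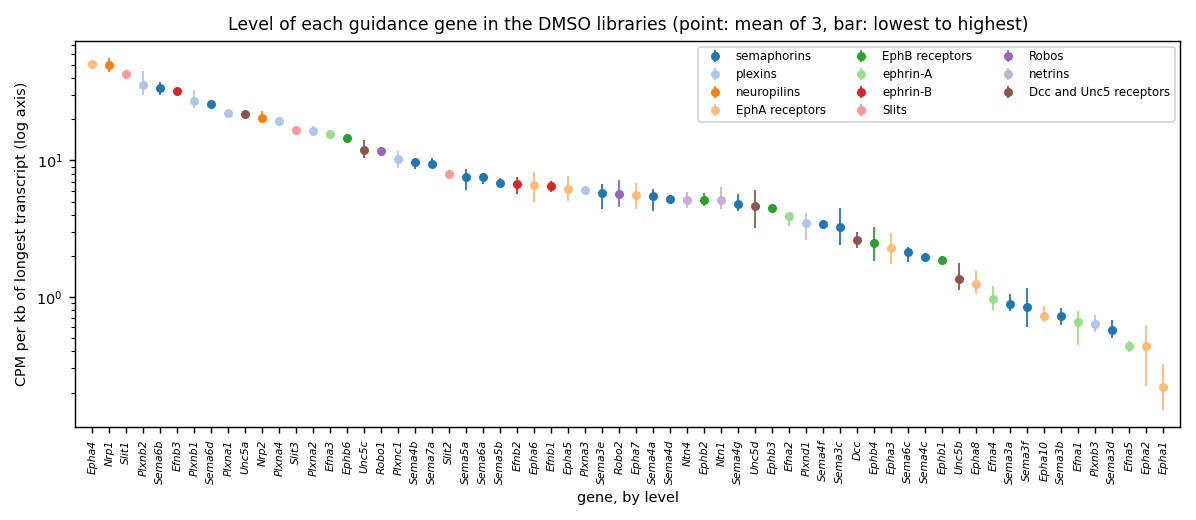
Level in CPM per kilobase of longest transcript (log axis) of each tested guidance gene in the DMSO libraries, ordered by level and coloured by family, with points for the mean of 3 libraries and bars from the lowest to the highest. Epha4 and Nrp1 head the order at 50.6 and 49.7 CPM per kb with ranges that overlap, and Epha1 closes it at 0.221.

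After 30 min of forskolin, 5 of the 64 tested guidance genes fell and none rose in edgeR's quasi-likelihood test with Benjamini-Hochberg adjustment over all 16233 genes. The 5 were the semaphorin Sema6b, the plexin Plxna1, the Eph receptors Epha10 and Ephb6, and the netrin receptor Unc5a. They are 7.81% of the tested guidance genes, against 1.34% of all tested genes called lower, and the share of all genes called higher was 0.172%. At an unadjusted p under 0.05, 16 guidance genes were lower and 4 higher, 20 of 64 beside 3619 of 16233 genes in all. DESeq2 called 14 lower, where it called 6.03% of all genes, and called Sema3c and Sema3d higher, where it called 4.90% of all genes. The median log2 fold change of the 64 was -0.13 and that of all tested genes 0.021, and the fitted change was negative for 62.5% of the guidance genes and for 48.2% of all genes. Unless another tool is named, calls and adjusted p-values below are edgeR's, and DESeq2's calls are given by family. Leaving out any single DMSO library, or forskolin library 4 or 5, left 0 calls among all genes by edgeR (1945 to 3216 genes, and 14 to 19 guidance genes, at an unadjusted p under 0.05). Without library 6 all 5 were called lower, 27 guidance genes were lower and 12 higher at an unadjusted p under 0.05 (beside 7799 of 16941 genes in all), and the guidance median was -0.25.

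**Figure D2:**
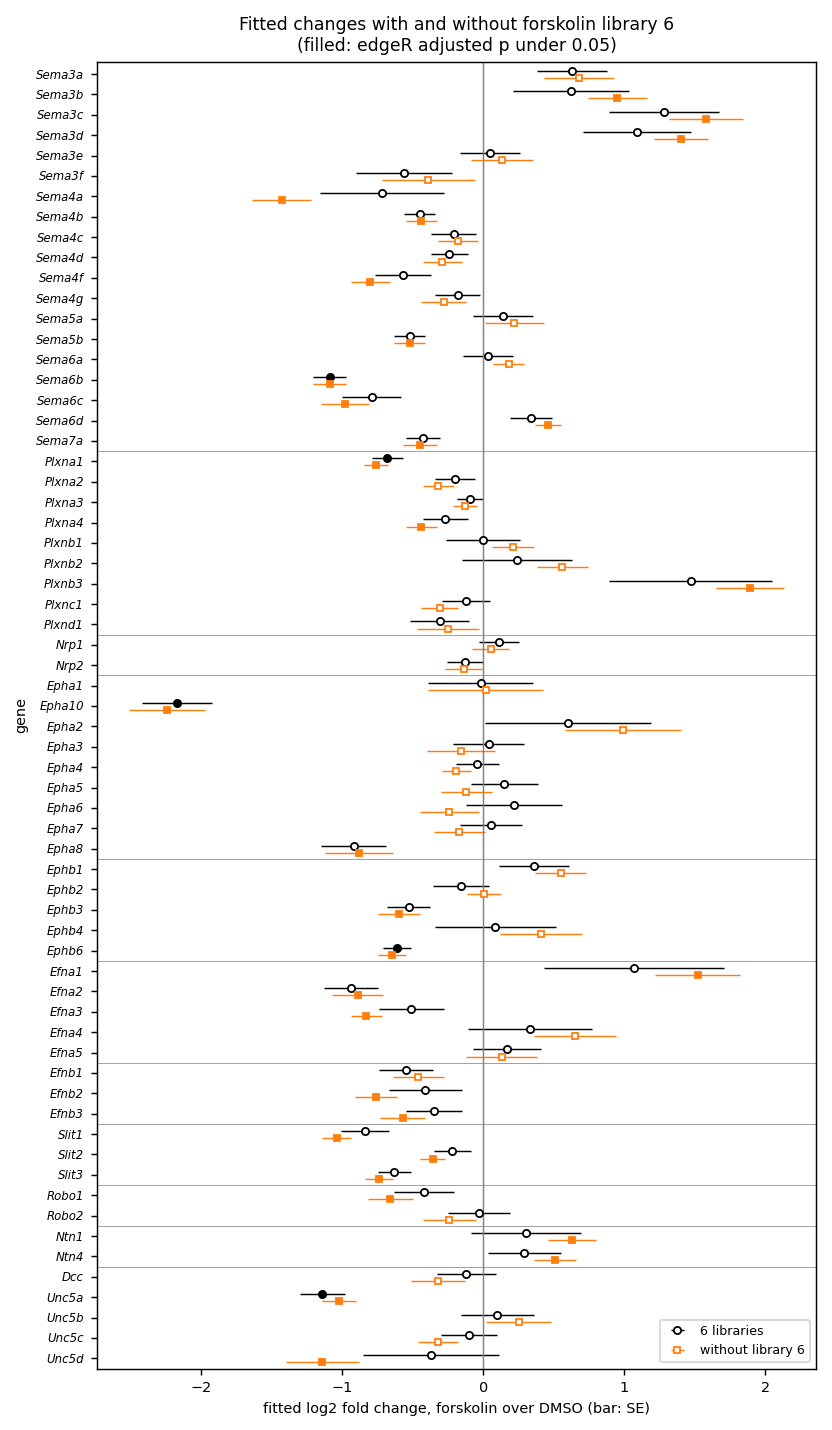
Fitted log2 fold change of forskolin against DMSO for each tested guidance gene, grouped by family, with bars of 1 standard error, from all 6 libraries (circles) and without library 6 (squares); filled symbols have an adjusted p under 0.05. Epha10, at -2.17, is the lowest of the genes called lower from all 6 libraries, and the class 3 semaphorins Sema3c and Sema3d lie among the highest and are called by edgeR without library 6 but not with all 6 libraries.

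Semaphorins are the largest family. Of the 19 tested, edgeR called 1 lower and none higher with all 6 libraries, and DESeq2 called 5 lower (Sema4b, Sema5b, Sema6b, Sema6c and Sema7a) and 2 higher (Sema3c and Sema3d). In edgeR's fit 11 had a negative and 8 a positive fitted change, and the median log2 fold change was -0.21, which went to 0.0004 when the trend on GC content was removed. Sema6b read 125, 141 and 114 CPM with DMSO (libraries 1 to 3, in that order here and for each gene) and 60.9, 59.1 and 58.0 CPM with forskolin (libraries 4 to 6). The 3 forskolin libraries lay close together and below every DMSO library, library 6 included. The log2 fold change was -1.09 ± 0.12 (SE), with an adjusted p of 0.0224, and it was -1.09 (adjusted p = 0.00326) without library 6. With the GC trend removed it was -0.33 (adjusted p = 0.425). Sema6b lies at chr17:56123085-56140343 on the minus strand (GRCm38).

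Several of the secreted class 3 semaphorins were instead higher in libraries 4 and 5. Sema3c, a ligand of neuropilin receptors that can attract cortical axons, was at 13.1, 15.4 and 24.8 CPM in DMSO and at 52.8, 54.4 and 21.9 CPM with forskolin. Each of libraries 4 and 5 was above every DMSO library, while library 6 was inside the DMSO range. With all 6 libraries the log2 fold change of 1.28 ± 0.39 did not pass (adjusted p = 0.149), and without library 6 Sema3c rose by 1.58 ± 0.26 (adjusted p = 0.00757). Sema3d, another secreted class 3 semaphorin, was at 3.19, 3.41 and 4.29 CPM in DMSO and 9.94, 9.52 and 3.79 CPM with forskolin. The same 2 libraries were high and library 6 was again within the DMSO range, so that the change was 1.09 ± 0.38 with all libraries (adjusted p = 0.175) and 1.40 ± 0.19 without library 6 (adjusted p = 0.00475). Sema3a, a secreted repellent of axons, was the only guidance gene with all 3 forskolin libraries above all 3 DMSO libraries, a pattern that 10.3% of all tested genes showed. Its levels were 4.97, 4.69 and 6.28 CPM in DMSO and 10.6, 6.58 and 7.50 CPM with forskolin, and its log2 fold change of 0.63 ± 0.25 did not pass (adjusted p = 0.201). It was named here after its values were seen.

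Among the membrane-bound semaphorins, Sema4a, a class 4 member, showed the reverse of Sema3c. It was at 13.6, 19.9 and 18.9 CPM in DMSO and at 7.09, 5.99 and 18.7 CPM with forskolin. The low libraries were 4 and 5, below every DMSO library, and library 6 was inside the DMSO range. The change was -0.72 ± 0.44 (adjusted p = 0.362) with all libraries, and without library 6 Sema4a fell by 1.43 on the log2 scale (adjusted p = 0.00561). Without library 6, 4 semaphorins were called higher (Sema3b, Sema3c, Sema3d and Sema6d) and 7 lower (Sema4a, Sema4b, Sema4f, Sema5b, Sema6b, Sema6c and Sema7a), beside 16.5% of all genes called higher and 17.1% called lower in that fit. The classes were not tested against each other, and uncalled members differed in sign within a class: class 3 Sema3f had a fitted change of -0.39 and Sema3e one of 0.13 in that fit.

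Plexins carry the semaphorin signal into the cell through a GTPase-activating domain. Of 9 plexins, 1 fell and none rose with all 6 libraries, by edgeR and by DESeq2. Without library 6 edgeR called Plxna1 and Plxna4 lower and Plxnb3 higher, where it called 17.1% of all genes lower and 16.5% higher. The family median of -0.12 was -0.25 without library 6 and turned to 0.11 with the GC trend removed. Plxna1, the co-receptor of neuropilins for class 3 semaphorins and a receptor of class 6 semaphorins, read 199, 207 and 203 CPM in DMSO and 116, 125 and 137 CPM with forskolin. All forskolin libraries were lower than all DMSO libraries, and the DMSO libraries lay close together. The log2 fold change was -0.68 ± 0.11, with an adjusted p of 0.0432. The gene lies at chr6:89316314-89362620 on the minus strand (GRCm38) and shares exon sequence with Gm26811 on the opposite strand, so that reads of this pair cannot be told apart where counting ignored strand, which the sources used here do not give.

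Plxnb3, a receptor of Sema5a known from oligodendrocytes, was the guidance gene with the highest fitted change. It was at 3.44, 4.59 and 3.87 CPM in DMSO and at 18.1, 11.7 and 3.08 CPM with forskolin. Libraries 4 and 5 were above and library 6 below every DMSO library, and the log2 fold change of 1.47 ± 0.58 did not pass (adjusted p = 0.203). Without library 6 Plxnb3 rose by 1.89 ± 0.24 (adjusted p = 0.00406). In the authors' deposited table of 132 genes it is the only guidance gene, with a log2 fold change of 1.65, a standard error of 0.25 and an adjusted p of 3.74e-09. Libraries 4 and 5 also held more of the myelin transcript Mbp (38.0 to 42.8 CPM in DMSO; 210, 387 and 31.6 CPM in libraries 4, 5 and 6). Not all markers of the lineage did so: Olig1, a transcription factor of the lineage, was at 228 to 253 CPM in DMSO and at 141, 153 and 103 CPM in libraries 4, 5 and 6. The part of these cells in the Plxnb3 change was not tested.

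Plxnb2, the most abundant plexin per kb and a receptor present on glia and progenitors as well as neurons, read 295, 209 and 198 CPM in DMSO and 366, 333 and 128 CPM with forskolin. Its highest levels were in libraries 4 and 5 and its lowest in library 6, so that the fitted log2 fold change was 0.24 ± 0.39 (adjusted p = 0.740). It was 0.56 without library 6 (adjusted p = 0.0551) and -0.024 without library 4. The neuropilins showed small differences. Nrp1 was at 177, 163 and 204 CPM in DMSO and 174, 206 and 205 CPM with forskolin, and Nrp2, which pairs with other class 3 semaphorins, was at 154, 133 and 126 CPM and at 113, 139 and 124 CPM. The groups overlapped for both, and neither passed with all 6 libraries (adjusted p = 0.666 for Nrp1 and 0.572 for Nrp2). The fitted change of Nrp1, 0.11 (0.052 without library 6), turned sign with library size as the only scaling and with the GC trend removed.

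**Figure D3:**
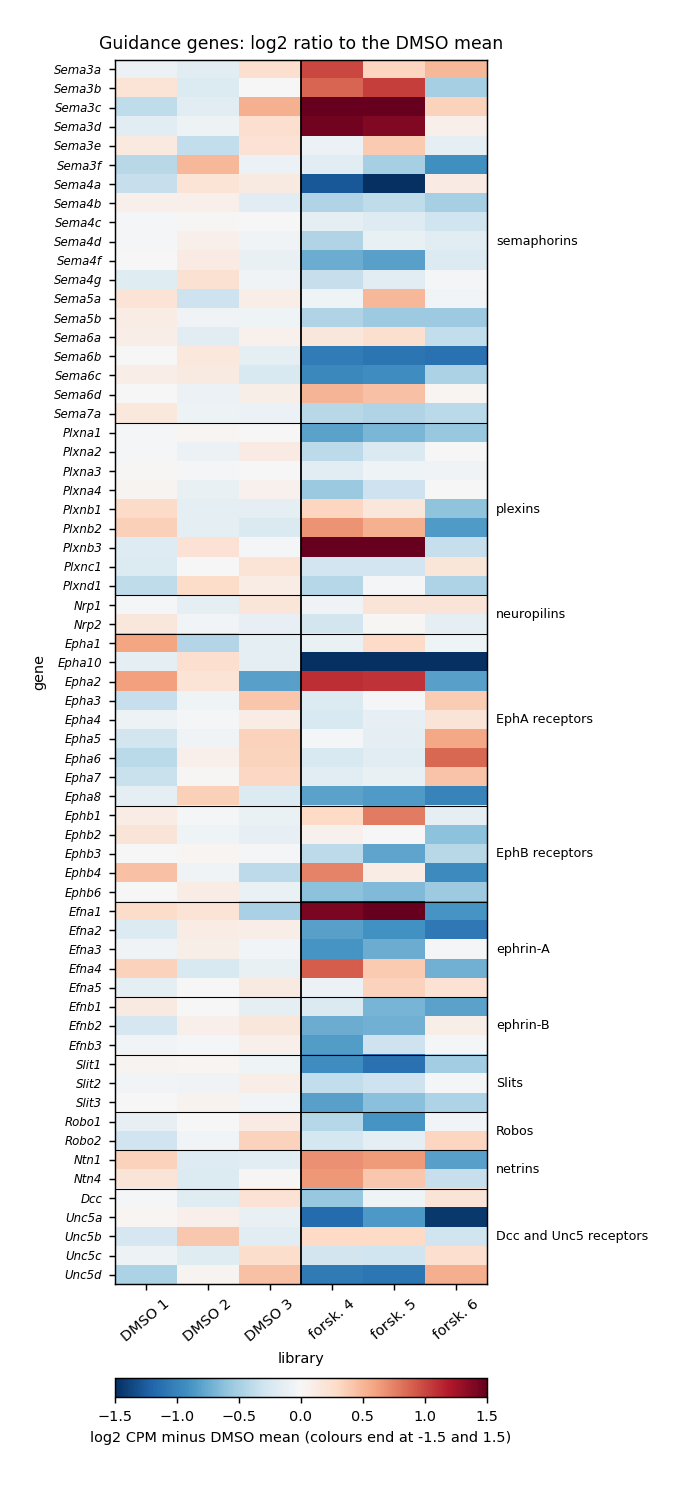
Log2 ratio of CPM in each library to the mean of the DMSO libraries for the tested guidance genes, in rows by family, with DMSO libraries 1 to 3 to the left of the line and forskolin libraries 4 to 6 to its right. Sema6b, Epha10 and Unc5a are low in every forskolin library, while Sema3c, Sema3d, Plxnb3 and Efna1 are high in libraries 4 and 5 and not in library 6.

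Eph receptors, the largest family of receptor tyrosine kinases, bind membrane-tethered ephrins on neighbouring cells. Of 9 EphA receptors edgeR called 1 lower, of 5 EphB receptors it called 1 lower, and it called none higher with all 6 libraries. DESeq2 also called Epha8 (adjusted p = 0.0118) and Ephb3 (adjusted p = 0.0384) lower, as did edgeR without library 6 (adjusted p = 0.0332 and 0.0257). Epha10, a receptor whose kinase domain lacks catalytic residues, showed the largest change of any guidance gene: 3.06, 4.0 and 3.06 CPM in DMSO and 0.786, 0.646 and 0.806 CPM with forskolin. Every forskolin library was below every DMSO library, with a mean of 3.37 ± 0.545 CPM against 0.746 ± 0.087 CPM (SD, n = 3 each). The log2 fold change was -2.17 ± 0.25, with an adjusted p of 0.0276, and -2.24 (adjusted p = 0.00393) without library 6. With the GC trend removed it was -1.69 (adjusted p = 0.168). Epha10 lies at chr4:124880899-124917800 on the plus strand (GRCm38), and its exons overlap those of 1700125G02Rik on the opposite strand, whose reads could not be told apart without strand.

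Ephb6, the other Eph receptor without kinase activity, was at 54.7, 59.2 and 51.2 CPM in DMSO and 36.0, 34.8 and 37.7 CPM with forskolin. The forskolin libraries were all lower and lay close together, library 6 with the others. The log2 fold change was -0.61 ± 0.10, with an adjusted p of 0.0458. Ephb6 was called lower in 6 of 16 alternative runs, and its change was -0.13 (adjusted p = 0.639) with the GC trend removed. It lies at chr6:41605482-41620509 on the plus strand (GRCm38). Epha4, with Nrp1 among the most abundant receptors per kb, was at 303, 314 and 345 CPM in DMSO and 273, 295 and 366 CPM with forskolin. The groups overlapped, with libraries 4 and 5 lowest and library 6 highest of the 6, and the change of -0.042 ± 0.15 (adjusted p = 0.887; -0.19 without library 6, adjusted p = 0.179) took the other sign with upper-quartile scaling and without DMSO library 3, forskolin library 4 or forskolin library 5. Ephb1, a receptor of B-class ephrins, was at 9.34, 8.56 and 8.08 CPM in DMSO and 10.7, 14.9 and 7.82 CPM with forskolin, high in libraries 4 and 5 only (0.36, adjusted p = 0.416; without library 6, 0.55, adjusted p = 0.0625).

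Epha2, a receptor of A-class ephrins found mainly on epithelial and progenitor cells, had the most positive fitted change of the EphA receptors, 0.60 ± 0.59 (adjusted p = 0.571). Its levels were 2.44, 1.80 and 0.870 CPM in DMSO and 3.46, 3.38 and 0.866 CPM with forskolin. Libraries 4 and 5 were above every DMSO library, and library 6 was just below the lowest of them. Without library 6 the change was 0.99 ± 0.41 (adjusted p = 0.105).

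The cyclic AMP response element, CRE, is the DNA site bound by CREB, the transcription factor that forskolin activates through protein kinase A. It was looked for on both strands as the full motif TGACGTCA and as its core TGACG, which the full motif contains, in RefSeq promoters (GRCm38.p6, 250 bases before to 50 after a start). Of the 68 genes, 58 matched an entry. The full motif stood in 1 of these 58 (1.7%), Epha2, and in 547 of 26742 genes in all (2.0%), and the core stood in 10 of 58 (17.2%) against 6198 of all (23.2%). The 250 bases before the start are printed for Epha2, at chr4:141300971-141301220, for Sema3d, at chr5:12382916-12383165, and for Epha10, at chr4:124881535-124881784, all on the plus strand. The start is that of RefSeq: for Epha10 it lies inside the gene as GENCODE M21 draws it, which begins further upstream. They show the 1 full motif, a core at a gene high in libraries 4 and 5, and the gene with the lowest fold change. The 10 genes with the core differed in direction: libraries 4 and 5 were both above the DMSO libraries in 3 (Epha2, Ephb1 and Sema3d), both below in 6, and on neither side together in 1. Among all 16233 tested genes, libraries 4 and 5 were both above in 4895 and both below in 5274, and no difference from these was tested. Capitals mark the motifs, which begin at -33 in Epha2 and, as the core read on the opposite strand, at -84 in Sema3d, counting the base before the start as -1.
Epha2: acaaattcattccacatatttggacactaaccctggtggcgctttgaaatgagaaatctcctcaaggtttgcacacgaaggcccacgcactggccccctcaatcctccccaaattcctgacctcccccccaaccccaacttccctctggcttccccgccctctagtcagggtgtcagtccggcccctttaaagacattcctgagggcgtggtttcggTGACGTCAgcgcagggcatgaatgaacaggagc
Sema3d: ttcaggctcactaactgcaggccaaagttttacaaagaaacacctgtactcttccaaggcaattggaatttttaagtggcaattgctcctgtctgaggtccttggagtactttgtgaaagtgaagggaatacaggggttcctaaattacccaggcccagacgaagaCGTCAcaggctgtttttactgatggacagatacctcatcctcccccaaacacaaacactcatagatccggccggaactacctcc
Epha10: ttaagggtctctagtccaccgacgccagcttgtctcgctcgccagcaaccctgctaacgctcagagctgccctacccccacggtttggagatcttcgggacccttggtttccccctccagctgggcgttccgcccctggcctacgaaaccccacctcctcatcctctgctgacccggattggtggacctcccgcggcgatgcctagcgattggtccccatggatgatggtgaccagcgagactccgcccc
In the Epha10 stretch neither motif was found. A match in these letters is not evidence of binding, and no binding was measured in this series.

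The ephrins, ligands held on the cell surface by a lipid anchor (class A) or a transmembrane stretch (class B), gave no edgeR call with all 6 libraries, where DESeq2 called Efna2 lower (adjusted p = 3.15e-04) and voom with quality weights called Efna2, Efna3, Efnb1, Efnb2 and Efnb3 lower and Efna1 higher, a fit that called 20.9% of all genes lower and 21.0% higher. Efna1 was at 1.28, 1.21 and 0.729 CPM in DMSO and 2.87, 3.35 and 0.538 CPM with forskolin. High values in libraries 4 and 5 stood beside the lowest of all in library 6, so that the change was 1.07 ± 0.64 (adjusted p = 0.353), and without library 6 Efna1 rose by 1.52 ± 0.30 (adjusted p = 0.0132). Efna2 was at 7.12, 8.96 and 8.86 CPM in DMSO and 4.69, 4.38 and 3.91 CPM with forskolin.

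The Efna2 groups did not overlap, and the change of -0.94 ± 0.19 missed the threshold (adjusted p = 0.0704); it passed without library 6 (-0.89, adjusted p = 0.0142). Efna3, the most abundant A-class ephrin, was at 35.5, 39.4 and 36.0 CPM in DMSO and 20.1, 21.9 and 36.1 CPM with forskolin. Library 6 was within the DMSO range and libraries 4 and 5 were far below it, with a change of -0.51 ± 0.23 (adjusted p = 0.249) and, without library 6, a change of -0.83 ± 0.11 on the log2 scale (adjusted p = 0.00417). The 3 B-class ephrins all had negative fitted changes, from -0.55 to -0.35, and their median of -0.41 stayed negative under each alternative run, at -0.18 with the GC trend removed. Efnb1 was at 23.1, 20.8 and 19.2 CPM in DMSO and 18.1, 12.9 and 12.1 CPM with forskolin, without overlap and without passing (adjusted p = 0.171). Efnb3 was at 98.7, 99.7 and 108 CPM in DMSO and 57.1, 82.2 and 100 CPM with forskolin, with library 6 among the DMSO values (-0.35 ± 0.20, adjusted p = 0.333). Without library 6 Efnb3 fell by 0.57 on the log2 scale (adjusted p = 0.0381). Its sign turned (0.012) on removal of the GC trend.

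Slits are secreted proteins that repel axons bearing Robo receptors and promote their branching. All 3 had a negative fitted change and none passed in edgeR's test with all 6 libraries. DESeq2 called Slit1 (adjusted p = 0.00153) and Slit3 (adjusted p = 0.00210) lower, as it did 6.03% of all genes. The Slit median of -0.63 stayed negative under each alternative run and was -0.35 with the GC trend removed, where Slit1 was at -0.39. Slit1 was at 248, 248 and 231 CPM in DMSO and at 127, 111 and 168 CPM with forskolin. The groups did not overlap, library 6 being the highest of the forskolin libraries, and the change was -0.84 ± 0.17 with an adjusted p of 0.0725. Slit3 was at 87.5, 91.4 and 85.3 CPM in DMSO and 50.1, 56.9 and 64.0 CPM with forskolin, also without overlap (-0.63 ± 0.12, adjusted p = 0.0635); it is named here after its values were seen. Slit2 was at 77.1, 76.5 and 85.1 CPM and at 61.6, 64.1 and 78.7 CPM, where library 6 fell inside the DMSO range (-0.22 ± 0.13, adjusted p = 0.333). Without library 6 all 3 Slits fell, Slit1 by 1.04 on the log2 scale (adjusted p = 0.00306), Slit3 by 0.74 (adjusted p = 0.00454) and Slit2 by 0.36 (adjusted p = 0.0283). That fit called 17.1% of all genes lower.

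Of the Robo receptors, Robo1 and Robo2 could be tested with all 6 libraries. Robo1 was at 80.9, 88.4 and 95.4 CPM in DMSO and 65.3, 47.4 and 85.7 CPM with forskolin, where library 6 was within the DMSO range (-0.42 ± 0.21, adjusted p = 0.294), and without library 6 Robo1 fell by 0.66 on the log2 scale (adjusted p = 0.0223). Robo2 was at 39.2, 46.8 and 61.4 CPM and at 40.4, 43.8 and 60.3 CPM, with overlapping groups (-0.030, adjusted p = 0.945; without library 6, -0.24, adjusted p = 0.355). Its sign turned with upper-quartile scaling and without DMSO library 3, forskolin library 4 or forskolin library 5. Robo3, which modulates Slit repulsion at the midline, and Robo4, a receptor of blood vessels, had at most 12 counts in a library. Without library 6 Robo3 passed the filter and was not called (-1.39, adjusted p = 0.101). The summed level per kb of the Slits over that of the Robos was 4.45, 3.99 and 3.31 with DMSO and 2.85, 3.24 and 2.70 with forskolin. All 3 forskolin ratios, that of library 6 included, were below the lowest DMSO ratio. These levels were not corrected for GC content. Its median was 56.8% for the Slits and 46.0% for the tested Robos, and its part in the ratio was not tested.

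Netrins are secreted proteins, of which the product of Ntn1 attracts axons through Dcc and repels them through Unc5 receptors. Ntn1 was at 37.6, 25.9 and 26.4 CPM in DMSO and 47.5, 46.2 and 16.7 CPM with forskolin, and Ntn4 was at 21.3, 16.2 and 18.9 CPM and at 29.3, 24.8 and 14.6 CPM. For both, libraries 4 and 5 were above and library 6 below every DMSO library. Neither passed in edgeR's test with all 6 libraries (0.30 ± 0.39 with an adjusted p of 0.674 for Ntn1, 0.29 ± 0.26 with an adjusted p of 0.537 for Ntn4), and both rose without library 6 (0.63, adjusted p = 0.0359, and 0.51, adjusted p = 0.0420). Voom with quality weights on all 6 called both higher (0.66, adjusted p = 0.0415, and 0.54, adjusted p = 0.0335), as it did 21.0% of all genes, while without library 4 the changes were 0.067 for Ntn1 and 0.069 for Ntn4.

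On the receptor side, Unc5a fell. It was at 89.0, 91.8 and 80.8 CPM in DMSO and 39.1, 48 and 31.8 CPM with forskolin. All 3 forskolin libraries were well below all 3 DMSO libraries and library 6 was the lowest. The log2 fold change was -1.14 ± 0.16, with an adjusted p of 0.0371, and -1.02 (adjusted p = 0.00393) without library 6. With the GC trend removed it was -0.46 (adjusted p = 0.320). Unc5a lies at chr13:54949411-55006018 on the plus strand (GRCm38), with exons that overlap Hk3 on the opposite strand.

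Its paralogue Unc5d gave another pattern, and is named here after its values were seen. It was at 29.4, 42.3 and 55.9 CPM in DMSO and at 19.7, 19.5 and 59.9 CPM with forskolin. Every DMSO library lay above libraries 4 and 5 and below library 6, so that the change was -0.37 ± 0.48 (adjusted p = 0.673) and, without library 6, a fall of 1.14 on the log2 scale (adjusted p = 0.0204). Unc5b was at 6.56, 10.4 and 6.96 CPM and at 9.60, 9.61 and 6.30 CPM, with overlapping groups (0.10, adjusted p = 0.851; without library 6, 0.25, adjusted p = 0.417), and its sign turned without DMSO library 1, DMSO library 3 or forskolin library 4. The summed level per kb of the 4 Unc5 receptors over that of Dcc was 15, 17.5 and 13.9 in DMSO and 13.4, 10.3 and 10 with forskolin, without overlap. The ratio of the netrins to Dcc and the Unc5 receptors was 0.303, 0.212 and 0.217 in DMSO and 0.645, 0.528 and 0.212 with forskolin, with library 6 at the lowest DMSO value. These are 3 of 7 ratios of summed levels computed. None of the 7 was corrected for GC content, and the part of the GC trend in them was not tested. Of the other 4, ephrin-A over EphA was lower without overlap (0.258 to 0.313 in DMSO, 0.205 to 0.231 with forskolin). The groups overlapped for ephrin-B over EphB (1.45 to 1.80, and 1.12 to 2.16), class 3 semaphorins over neuropilins (0.161 to 0.193, and 0.160 to 0.316) and class 4 to 7 semaphorins over plexins (0.811 to 0.939, and 0.693 to 0.872).

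**Figure D4:**
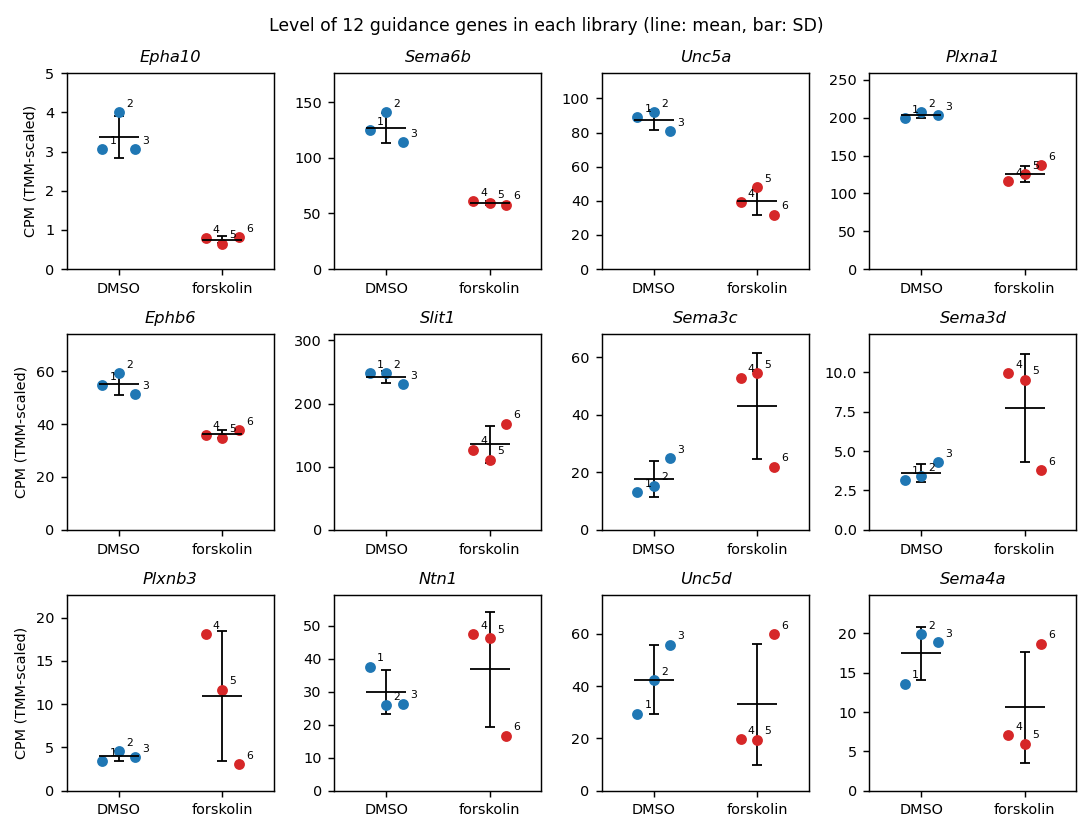
CPM of 12 guidance genes in each library, DMSO libraries 1 to 3 and forskolin libraries 4 to 6, with a line for each group mean, bars of 1 SD (n = 3) and a vertical axis that starts at 0 in every panel. In the panels of Sema6b, Epha10, Plxna1, Unc5a and Ephb6 all forskolin points lie below all DMSO points, and in those of Sema3c and Plxnb3 library 6 lies apart from libraries 4 and 5.

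Across the 64 tested genes the forskolin libraries thus divided. The 34 genes whose levels are not given library by library had fitted log2 fold changes from -0.92 (Epha8) to 0.62 (Sema3b), 22 negative and 12 positive, and a lowest adjusted p of 0.0758. Without library 6, 9 of these were called lower (Efnb2, Epha8, Ephb3, Plxna4, Sema4b, Sema4f, Sema5b, Sema6c and Sema7a) and 2 higher (Sema3b and Sema6d), beside 17.1% of all genes called lower and 16.5% called higher in that fit. In 19 genes (29.7%) all forskolin libraries were below all DMSO libraries, against 16.2% of all tested genes. They comprise 8 semaphorins, 2 plexins, 2 EphA and 2 EphB receptors, 1 ephrin of each class, 2 Slits and Unc5a. Of the 14 genes that were above every DMSO library in libraries 4 and 5, library 6 was above in 1, within the DMSO range in 3 and below it in 10 (71.4%). Of the 4895 genes in all with that pattern in libraries 4 and 5, library 6 was above in 34.0%, within in 37.5% and below in 28.5%. Of the 31 genes that were below in libraries 4 and 5, library 6 was also below in 19 (61.3%), within in 10 and above in 2, and for 5274 genes in all it was below in 49.9%, within in 23.6% and above in 26.5%. The mean of libraries 4 and 5 and library 6 had the same sign of change in 53.1% of the guidance genes and 55.4% of all genes, and none of these differences was tested. The 10 genes that were high in libraries 4 and 5 and low in library 6 include both tested netrins, Efna1, Epha2, Plxnb2 and Plxnb3. The 2 genes with the opposite pattern were Epha4 and Unc5d.

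Without library 6, 65 guidance genes could be tested, since Robo3 then passed the filter. edgeR called 8 of them higher (12.3%), where it called 16.5% of all genes, and 23 lower (35.4%), where it called 17.1% of all genes. The share called higher was near the background, and the difference of the share called lower from its background was not tested. Libraries 4 and 5 are also those with more microglia and oligodendrocyte RNA and less neuronal RNA, and without library 6 the same test called 11 of 12 microglia markers and 7 of 12 oligodendrocyte lineage markers higher, 2 oligodendrocyte lineage markers (Cspg4 and Olig1) lower, and 9 of 14 neuron markers lower. The part of cell makeup in the guidance calls was not tested. With all 6 libraries no marker of the 5 cell type lists was called higher, and 1 was called lower, the neuronal splicing factor Rbfox3, at 69.2, 84.5 and 80.2 CPM in DMSO and 37.8, 42.8 and 47.2 CPM with forskolin.

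GC content of the transcript moved with the fold change. The tested guidance genes had a median GC content of 55.7%, against 49.5% for all tested genes, and the 5 genes called lower had 57.3 to 63.5%. Across genes, which are not independent replicates, the Spearman correlation of fold change with GC content was -0.57 over the 64 guidance genes and -0.51 over 15769 genes. All 6 guidance genes with a GC content of 60% or more had a negative fitted change, with a median of -0.85, beside a median of -0.61 for all tested genes in that range, of which 86.4% were negative. The 13 guidance genes under 45% had a median of 0.056 and 30.8% negative changes, beside 0.31 and 17.5% for all genes there, and the 45 between had a median of -0.18, beside -0.068 for all genes.

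With each library's trend on GC content removed, edgeR called 0 genes of all tested (1947 at an unadjusted p under 0.05, with 2 guidance genes higher and 5 lower among them). The 5 genes kept negative fitted changes that did not pass: Epha10 -1.69 (adjusted p = 0.168), Unc5a -0.46 (adjusted p = 0.320), Plxna1 -0.36 (adjusted p = 0.413), Sema6b -0.33 (adjusted p = 0.425) and Ephb6 -0.13 (adjusted p = 0.639). Of the 19 genes low in every forskolin library, 16 kept a negative sign, and their median went from -0.61 to -0.21. With the GC trend removed and library 6 left out together, all 5 were called lower, among 22 guidance genes (33.8%, where 16.1% of all genes were called lower), and 13 were called higher (20%, where 16.0% of all genes were). Over all tested genes of 60% GC or more, the median log2 ratio of a library to the mean of the DMSO libraries ran from -0.11 to 0.071 for libraries 1 to 3, and it was -0.45 for library 4, -0.57 for library 5 and -0.90 for library 6. Over all tested genes under 45% GC the median was -0.10, -0.080 and 0.19 for libraries 1 to 3. It was 0.30, 0.42 and 0.25 for libraries 4 to 6. The trend thus lay in each forskolin library and, to a smaller extent, in DMSO library 3, and its part in the guidance calls was not tested.

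**Figure D5:**
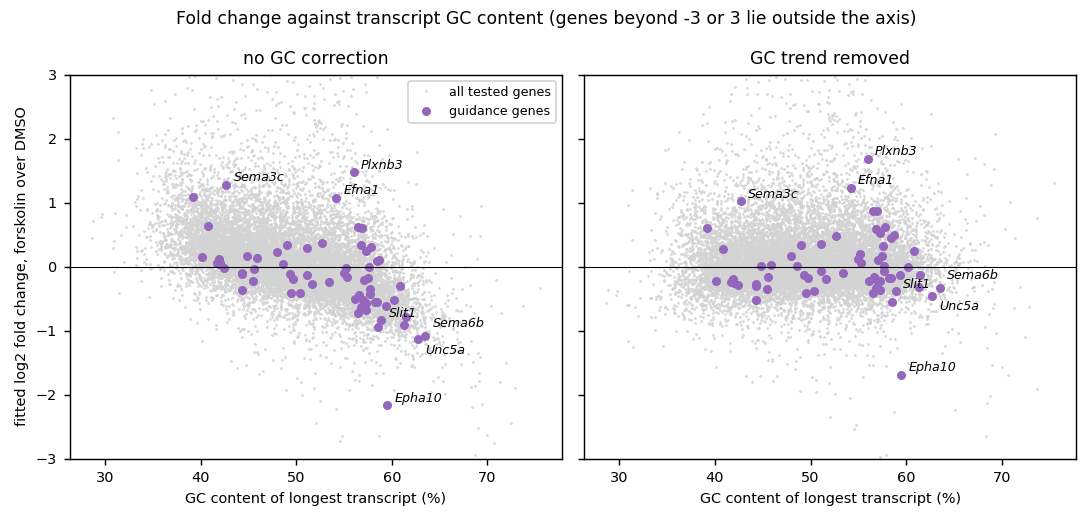
Fitted log2 fold change from all 6 libraries against GC content of the longest transcript, without correction and with each library's GC trend removed, for all tested genes (grey) and the guidance genes (purple); of 15769 genes, 105 and 97 lie outside the axis limits of -3 and 3. The guidance genes follow the downward slope of all genes before the removal (Spearman correlation -0.57) and not after it (-0.017), where Epha10 remains the lowest of them.

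The effectors and co-receptors through which these receptors act, a list of 60 genes of small GTPase regulators, collapsin response mediators, adaptors, adhesion molecules, and repulsive guidance and netrin-G family proteins, were all tested. Of these 1 fell and none rose with all 6 libraries, beside 1.34% lower and 0.172% higher among all genes, and the list's median was -0.16. The gene that fell was Ntng2, a lipid-anchored netrin relative on axons that binds a postsynaptic partner. It was at 11.9, 14.9 and 13.0 CPM in DMSO and 6.24, 6.11 and 5.58 CPM with forskolin, a change of -1.15 ± 0.16 (adjusted p = 0.0371). Without library 6, 7 of the 60 were called higher and 27 lower, beside 16.5% and 17.1% of all genes, and the list's median was -0.26.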

How the data were processed

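Each library has a column of raw, whole-number counts by gene symbol in the table the authors deposited. A second deposited table holds, per the file headers, for 132 genes, a signal (normalised counts averaged over libraries), log2 fold change and its SE, a score (the test statistic), and raw and adjusted p-values. The submitters' processing notes name Salmon, DESeq and GRCm38 with no role or version; if Salmon made the counts, they are rounded estimates. Strand setting and annotation are not given in the sources used here.

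Members and gene lists were chosen with earlier results of these data known. In R 4.3.3, edgeR 4.0.16 tested forskolin against DMSO over all genes that passed filterByExpr (minimum count 10, minimum total count 15), with TMM scaling, a quasi-likelihood fit and Benjamini-Hochberg adjustment at 0.05. CPM, counts per 1000000, used TMM-scaled library sizes. A positive log2 fold change means more in forskolin. Its SE in edgeR's fits was calculated back from the test, as the absolute change over the square root of the F statistic. Per-kb levels and GC content came from each gene's longest transcript in GENCODE M21 (GRCm38), which gave 97.1% of tested genes a GC value; the GC trend was a lowess curve (span 0.3) per library. DESeq2 1.42.0, limma 3.58.1 (voom, with and without quality weights), other scalings and filters, each library left out and GC removal were alternatives. Libraries held 28342764 to 47548379 counts; how counting error compares with the spread between libraries was not tested. The scripts were tested on simulated data.

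Named members are those past the threshold; in each family, among members averaging at least 20 counts, the highest per kb and those with the most positive and most negative change; and the 6 largest changes past the threshold without library 6. Sema3a, Slit3, Unc5d and the members named in counts were added after their values were seen. Lists in view were microglia, oligodendrocyte lineage, astrocyte, neuron, and vascular and meningeal markers, and guidance effectors and co-receptors.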

Additional observations from a re-analysis of the deposited data

How the results depend on the processing

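Over all tested genes the 245 calls became 1775 with DESeq2, 6795 with voom quality weights, 137 with RLE and 102 with upper-quartile scaling, 0 with the GC trend removed, 5432 with it removed and library 6 left out, and 0 to 5698 when each library was left out in turn. The 0 guidance genes called higher became 2 (DESeq2), 8 (quality weights), 13 (GC trend removed without library 6) and 0 to 8 (each library left out). The 5 called lower became 14 (DESeq2), 24 (quality weights), 3 (RLE), 2 (upper quartile), 3 (no low-count filter), 0 (GC trend removed), 22 (GC trend removed without library 6) and 0 to 23 (each library left out). Epha10 and Sema6b were shared with the calls under every scaling, tool and filter run, but not with the GC trend removed or with any library other than library 6 left out. The guidance median of -0.13 was -0.20 with quality weights, -0.085 with upper-quartile scaling, -0.24 with library size alone, -0.21 with the GC trend removed without library 6, and -0.25 to -0.10 with each library left out. Library size alone moved the median of all genes from 0.021 to -0.085. Nrp1, at 0.11, reversed to -0.29 (adjusted p = 0.0420) with the GC trend removed without library 6. The cause of these differences was not tested. No paired analysis was possible because the groups share no replicate number. Genes with under 1 CPM rest on few reads, and 3 libraries a group limit each call.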
